A study of Mus musculus with 6 samples.

Results

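Saa3 and Neurl3 are 2 of the 11308 protein-coding genes measured by RNA-seq in mouse podocytes with and without overexpression of the long non-coding RNA Dlx6-os1, and they hold 3 of the 21849 listed transcripts. They were picked by gene name because their levels in these same samples were much higher with Dlx6-os1, so the difference between the groups is given as a description, without a test. The cells were MPC5, a conditionally immortalized mouse podocyte line kept in normal glucose, and the labels give them as kidney cells of the C57BL/6 strain. There were 3 samples with Dlx6-os1 overexpression and 3 control samples. The labels describe a lentivirus carrying either Dlx6-os1 or no insert, while WT is the name of the controls in the titles. Control replicate 3 carries no genotype in its labels. The methods of the study instead describe an adenovirus with the full-length RNA, set against normal controls. What the controls received is therefore not settled, and an effect of the virus cannot be told apart from one of Dlx6-os1. Nothing in the labels says that the 3 samples of a group were separate infections, so the spread between them may be technical. The level of Dlx6-os1 itself was not analysed here, since the table lists protein-coding transcripts.

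Levels are in FPKM, fragments normalised to transcript length and to the mapped fragments of each sample, which sets transcripts of different length on 1 scale. The number of reads behind a value is unknown. Every listed transcript had a mean of at least 0.5 FPKM in 1 or both groups. Of the podocyte markers looked for, 8 of 14 were listed, among them Synpo, Podxl and Actn4, but Nphs1, which encodes nephrin of the slit diaphragm, had no listed transcript. Summed over the 8 markers, the level was 461 to 571 FPKM in the controls and 432 to 471 FPKM in the overexpressing cells.

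Saa3 encodes an inducible serum amyloid A, an acute phase apolipoprotein that in the mouse is made mainly outside the liver, by macrophages, fat cells and epithelia, after IL-1, TNF or bacterial lipopolysaccharide. Its promoter is known as a target of C/EBP and NF-κB family factors, and the human counterpart is a pseudogene. Neurl3, also called LINCR, encodes a RING-finger E3 ubiquitin ligase related to Neuralized, which in the fly marks Notch ligands for endocytosis. Neurl3 is known as a lipopolysaccharide-inducible gene of the mouse lung, and human NEURL3 has been described as an antiviral gene of liver cells infected with hepatitis C virus.

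The promoters of both genes are shown because these are the stretches where the factors named above would be looked for. Each is the 250 bases before the annotated start in RefSeq on GRCm38.p6, the assembly of mm10, read 5′ to 3′ on the strand of the gene. Saa3 lies on the minus strand (window chr7:46715677-46715926), and so does Neurl3 (window chr1:36273426-36273675). Capitals mark matches to the C/EBP motif TTNNGNAA in Saa3, and to the NF-κB motif and the TATA box TATAAA in Neurl3.
Saa3: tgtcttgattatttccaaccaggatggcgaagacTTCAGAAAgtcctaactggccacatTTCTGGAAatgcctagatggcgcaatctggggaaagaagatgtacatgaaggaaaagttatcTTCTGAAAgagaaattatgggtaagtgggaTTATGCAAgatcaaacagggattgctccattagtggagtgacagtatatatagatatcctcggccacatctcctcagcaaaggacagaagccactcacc
Neurl3: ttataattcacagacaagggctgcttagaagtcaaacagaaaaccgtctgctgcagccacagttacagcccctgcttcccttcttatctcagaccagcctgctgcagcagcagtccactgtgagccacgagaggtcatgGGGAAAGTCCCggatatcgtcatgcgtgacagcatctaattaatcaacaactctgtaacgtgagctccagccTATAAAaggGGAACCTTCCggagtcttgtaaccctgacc

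The motifs were searched on both strands, and a match is a description of the letters, not a site of binding. The Saa3 window held 4 matches to the C/EBP motif, whose first bases lie at -216, -191, -129 and -99 from the start. Of 27025 promoters of this length, 36.9% held the C/EBP motif at least once and 0.629% held it 4 or more times. The interferon-stimulated response element was matched once in Saa3, at -125, where it overlaps the C/EBP match at -129, and 3.04% of promoters held it. The Neurl3 window held 3 NF-κB matches, of which the pair at -111 and -110 share all but 1 base, while the other lies at -30. The NF-κB motif occurred in 16.6% of promoters, and 0.581% had 3 or more matches. The TATA box of Neurl3 begins at -39, and 13.0% of promoters held one. Neither window matched the AP-1 motif TGANTCA or the STAT motif TTCNNNGAA, held by 6.87% and 7.18% of promoters. No match to the NF-κB motif or to the exact letters TATAAA was found in Saa3, and no C/EBP or interferon response match in Neurl3. The Saa3 window does hold the stretch tatatata, which this search did not cover, so a TATA box of other letters was not looked for. Over the 8647 measured genes with a promoter in the table, the shares were 26.8% for C/EBP, 19.8% for NF-κB, 5.61% for the TATA box, 2.52% for the interferon response element, 3.92% for AP-1 and 5.99% for STAT.

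Saa3 had 1 listed transcript, Saa3-001 (ENSMUST00000006956.8 of gene ENSMUSG00000040026.8), of 555 bases in 4 exons of 54, 95, 139 and 267 bases at chr7:46711998-46715700. Its listed start lies upstream of that in RefSeq, so the last 24 bases of the promoter printed above are inside Saa3-001, and the motif positions are counted from the RefSeq start. It was listed at 0 FPKM in control replicate 1, at 0 FPKM in control replicate 2 and at 0 FPKM in control replicate 3. In the cells with Dlx6-os1, its level was 2.61 FPKM in replicate 1, 3.04 FPKM in replicate 2 and 16.1 FPKM in replicate 3. Every overexpressing sample therefore lay above every control, replicates 1 and 2 were close to each other, and replicate 3 stood far above them. The mean of the overexpressing cells was 7.25 ± 7.66 FPKM (SD, n = 3), and 2.83 FPKM over replicates 1 and 2 alone. No fold is given against controls listed at 0. In such bulk samples, more cells expressing a gene and more RNA per cell cannot be told apart. Even where it was detected, Saa3 was a gene of modest level: it ranked 9562 and 9320 from the top of 11308 genes in replicates 1 and 2, and 4690 in replicate 3.

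Of the 11308 genes, 7 were listed at 0 in each of the 3 controls, Saa3 among them. A gene at 0 in the controls is in the table only where its overexpression mean reached 0.5 FPKM, so this number and the levels of the 7 genes are given as a description. Rsad2, which encodes the antiviral protein viperin, was at 0, 0.772 and 6.77 FPKM in overexpression replicates 1, 2 and 3. Defb26, a beta-defensin gene, was at 0.666, 0.764 and 3.24 FPKM, and Cxcl5, a neutrophil-attracting chemokine gene, at 0.479, 0.408 and 2.50 FPKM. Oas2, an interferon-induced oligoadenylate synthetase gene, was listed at 0 in replicates 1 and 2 and at 2.53 FPKM in replicate 3. Ptp4a3 was listed at 0 in replicates 1 and 2 and at 1.54 FPKM in replicate 3, and Klk1b24 was at 0.665, 0.370 and 0.564 FPKM. Klk1b24 was highest in replicate 1, and all the others of the 7, Saa3 among them, in replicate 3. Conversely, 4 genes were listed at 0 in every overexpressing sample.

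Neurl3 (ENSMUSG00000047180.8) was detected in every sample. Summed over its transcripts, its level was 0.745 FPKM in control replicate 1, 1.31 FPKM in replicate 2 and 1.01 FPKM in replicate 3. With Dlx6-os1 it was 4.85 FPKM in replicate 1, 7.21 FPKM in replicate 2 and 19.7 FPKM in replicate 3. The groups did not overlap: the lowest overexpressing sample was 3.69 times the highest control. The control mean was 1.02 ± 0.285 FPKM and the overexpression mean 10.6 ± 7.98 FPKM (SD, n = 3 each), a ratio of 10.4. Replicate 3 carried much of that ratio, which was 5.90 over overexpression replicates 1 and 2. On the log2(FPKM + 1) scale, which understates changes of low genes, the difference was 2.31. Among the 11308 genes, Neurl3 moved from between rank 10815 and rank 10308 in the controls to rank 8403, 7319 and 4029 in overexpression replicates 1, 2 and 3.

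**Figure D1:**
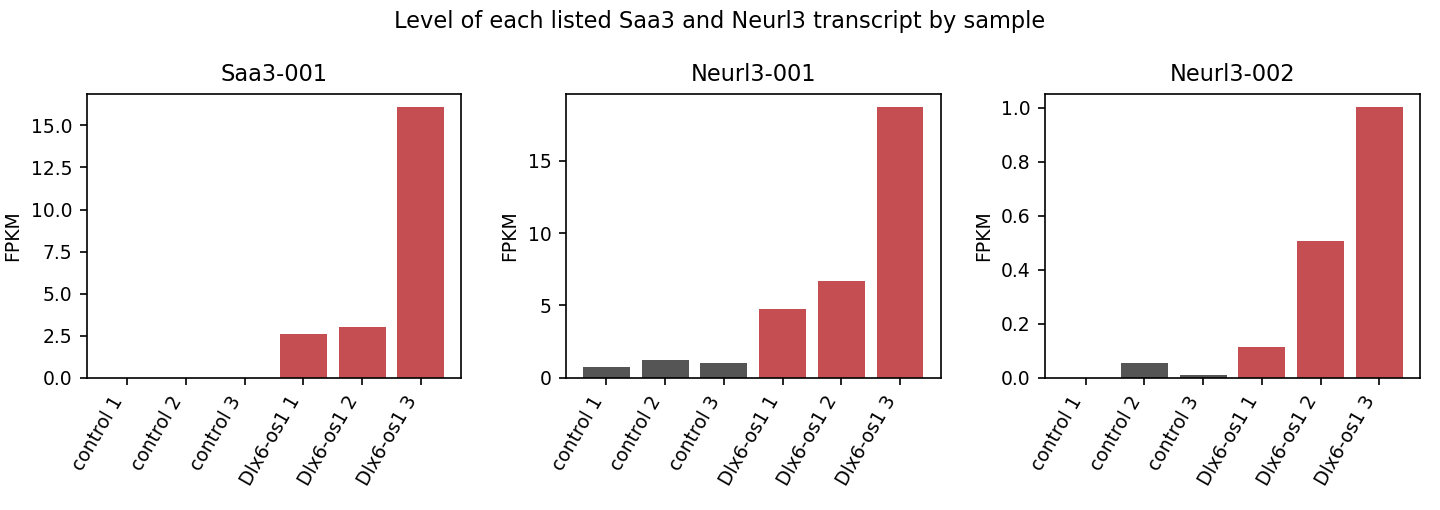
Level in FPKM (y axis, from 0, a separate scale in each panel) of Saa3-001, Neurl3-001 and Neurl3-002 in each of 6 samples (bars, grey for control and red for Dlx6-os1 overexpression). Saa3-001 has no bar in the controls and reaches 16.1 FPKM in overexpression replicate 3, and Neurl3-001 reaches 18.7 FPKM there.

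Neurl3 had 2 listed transcripts that differ in their start and in length. Neurl3-001 (ENSMUST00000056946.7) spans chr1:36264597-36273435 and has 4 exons of 98, 489, 54 and 1957 bases, 2598 bases in all. Neurl3-002 (ENSMUST00000188666.2) spans chr1:36268861-36274679, begins 1244 bases further upstream and has 4 exons of 45, 74, 246 and 841 bases, 1206 bases in all. The promoter printed above is that of Neurl3-001, whose listed start lies within it, so that its last 10 bases are also the first of the transcript. Neurl3-001 made up nearly all of the level, at 0.745, 1.26 and 0.996 FPKM in control replicates 1, 2 and 3 and 4.74, 6.70 and 18.7 FPKM in the overexpressing ones. Neurl3-002 was at 0, 0.0538 and 0.00908 FPKM in the controls and at 0.113, 0.506 and 1.00 FPKM with Dlx6-os1. Both transcripts were higher in every overexpressing sample than in any control, and both were highest in replicate 3. The share of Neurl3-002 in the gene was 0%, 4.09% and 0.903% in the controls and 2.33%, 7.03% and 5.09% in the overexpressing cells, ranges that overlap.

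Both genes followed the same order of samples within the overexpressing group, with replicate 1 lowest and replicate 3 highest. The step from replicate 1 to replicate 2 was 1.17 times for Saa3 and 1.49 times for Neurl3, and that from replicate 1 to replicate 3 was 6.17 times and 4.06 times. Relative to the mean of replicates 1 and 2, replicate 3 was 5.69 times for Saa3 and 3.27 times for Neurl3, against a median of 0.996 over all genes. Of 10620 genes whose overexpression mean reached 1 FPKM, 25 had at least the ratio of Saa3 (0.235%) and 95 that of Neurl3 (0.895%). Saa3 stood at 0.538, 0.423 and 0.816 times the level of Neurl3 in overexpression replicates 1, 2 and 3, so on this scale per length Neurl3 was the higher of the pair in each. Saa3-001 is the shorter transcript, and Neurl3-001 is 4.68 times as long, so an equal FPKM rests on fewer fragments of Saa3.

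Interferon-stimulated genes were also highest in overexpression replicate 3. The list held 30 genes, of which 28 were measured, and its summed level was 625 to 719 FPKM in the controls, 666 FPKM in overexpression replicate 1, 676 FPKM in replicate 2 and 1751 FPKM in replicate 3. Replicate 3 was the highest of all 6 samples for 24 of the 28 (85.7%), against 24.0% of all genes. Relative to the control mean, the median gene of the list was at 0.18, 0.24 and 1.71 on the log2 scale in overexpression replicates 1, 2 and 3. The median over all genes was 0.03, 0.03 and 0.04 in the same samples. In replicates 1 and 2 the summed level lay within the control range, though the median gene of the list was above that of all genes. Saa3 and Neurl3 were above every control in each overexpressing sample. Any part of the interferon-stimulated genes in the Saa3 and Neurl3 levels was not tested.

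**Figure D2:**
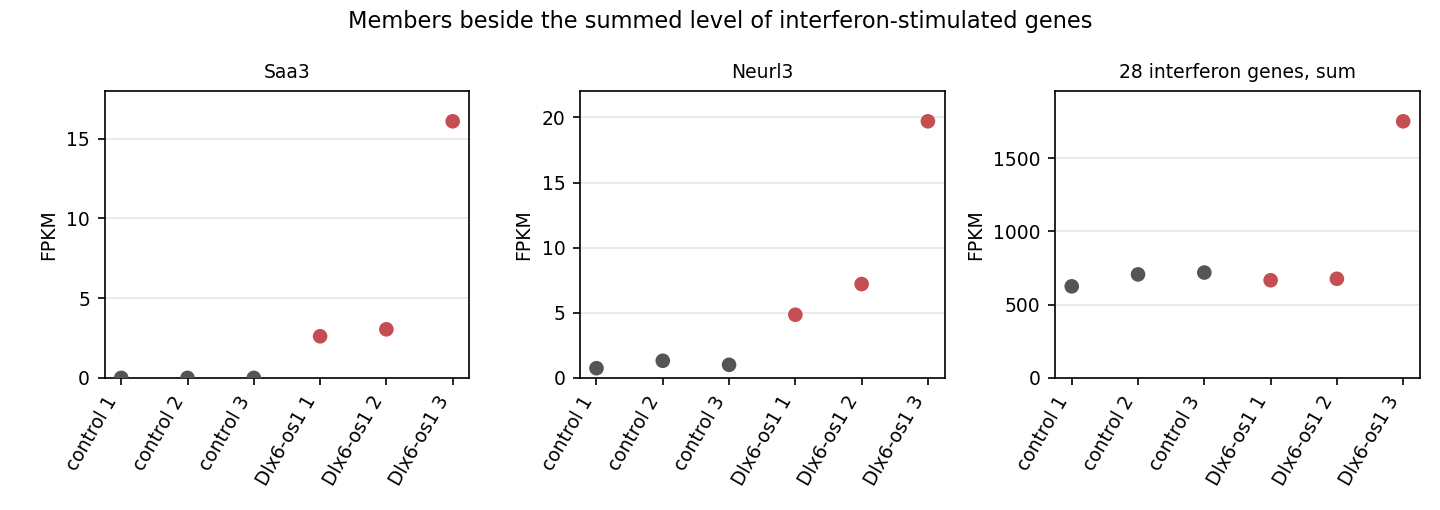
FPKM (y axis, from 0) of Saa3, of Neurl3 and of the sum of 28 interferon-stimulated genes in each sample (grey points, control and red points, Dlx6-os1 overexpression). The sum of the interferon-stimulated genes is 1751 FPKM in overexpression replicate 3 and 625 to 719 FPKM in the other 5 samples. Saa3 and Neurl3 are above the controls in each overexpression sample.

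A gene was called higher or lower in the comparison across all genes in a limma fit on log2(FPKM + 1) when its fold was above 1.5 and its unadjusted p below 0.05, the limits that the study used. By this rule 2.49% of the 11308 genes were called higher and 2.23% lower, 282 and 252 genes. After median-centring of each sample the split was 227 higher and 315 lower. An adjusted p under 0.05 was reached by 4 genes (0.0354%), and 1036 genes had an unadjusted p under 0.05. Fold changes below are differences of log2(FPKM + 1), with Dlx6-os1 minus control.

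Of the 28 measured interferon-stimulated genes, 4 were called higher and 1 lower, and their median log2 difference was 0.68, against 0.03 over all genes. Some of these genes are in the table only through the overexpressing cells, and among the 26 that averaged 0.5 FPKM or more in the controls, 3 were called higher and 1 lower, with a median of 0.64. Oasl2, an oligoadenylate synthetase-like gene, was at 6.00, 4.69 and 5.05 FPKM in the controls and 9.34, 10.6 and 23.5 FPKM with Dlx6-os1, 1.20 higher (adjusted p = 0.425). Oas1a (1.44), Oasl1 (1.02) and the ADP-ribosyltransferase gene Parp14 (0.82) were also called higher, with adjusted p-values of 0.544, 0.532 and 0.533, and Ifit3, which restricts viral RNA, was called lower (-0.73, adjusted p = 0.532). Ifit3 was at 81.3, 77.4 and 35.1 FPKM in the controls and 33.4, 32.9 and 42.3 FPKM with Dlx6-os1, so that control replicate 3 lay among the overexpressing samples, and it was not called in TPM or without control replicate 1 or 2 or overexpression replicate 1 or 2. None of Oas1a, Oasl1 and Parp14 was called after quantile normalization, without control replicate 2 or without overexpression replicate 3. Oas1a was at 3.24, 4.21 and 8.68 FPKM in the controls and 7.98, 8.56 and 48.6 FPKM with Dlx6-os1, so its groups overlapped. Irf7, Ifi44, Stat2 and Ddx58 had differences of 1.02, 1.35, 0.64 and 0.58 and were not called. The count of 4 fell to 1 without overexpression replicate 3 and rose to 16 without replicate 1, to 11 without replicate 2, and it was 2 and 1 without control replicates 1 and 2.

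The genes whose levels ran most like those of Saa3 and Neurl3 were sought by the Pearson correlation of log2(FPKM + 1) over the 6 samples, among the 10778 genes that averaged 1 FPKM or more in a group. With 6 samples in 2 groups, such a correlation reflects the group difference and replicate 3 together and is given as a description. Predicted genes, with symbols of Gm and a number or ending in Rik, were in this pool but left out of the ranking. Saa3 and Neurl3 correlated with each other at 0.990. The closest to Saa3 was Mlkl (0.998), the pseudokinase gene that carries out necroptosis, at 17.0, 16.2 and 15.7 FPKM in the controls and 25.1, 27.2 and 45.1 FPKM in the overexpressing cells. It was followed by Parp11 (0.994), an ADP-ribosyltransferase gene, Mmp9 (0.994), which encodes the matrix protease gelatinase B, Mettl6 (0.993), a tRNA methyltransferase gene, and Defb26 (0.992). Mettl6 was also the closest to Neurl3 (0.999), at 13.2, 13.7 and 13.3 FPKM in the controls and 16.5, 17.4 and 20.9 FPKM with Dlx6-os1. Mmp9 came next (0.994), at 0.129, 0.204 and 0.284 FPKM in the controls and 1.00, 1.17 and 2.50 FPKM with Dlx6-os1. Then came Nt5dc3 (0.993), the histone H4 gene Hist1h4k (0.992) and Nsl1 (0.991), a subunit of the kinetochore. All 8 of these genes shared the order of the overexpressing samples seen for Saa3 and Neurl3, with replicate 3 highest.

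**Figure D3:**
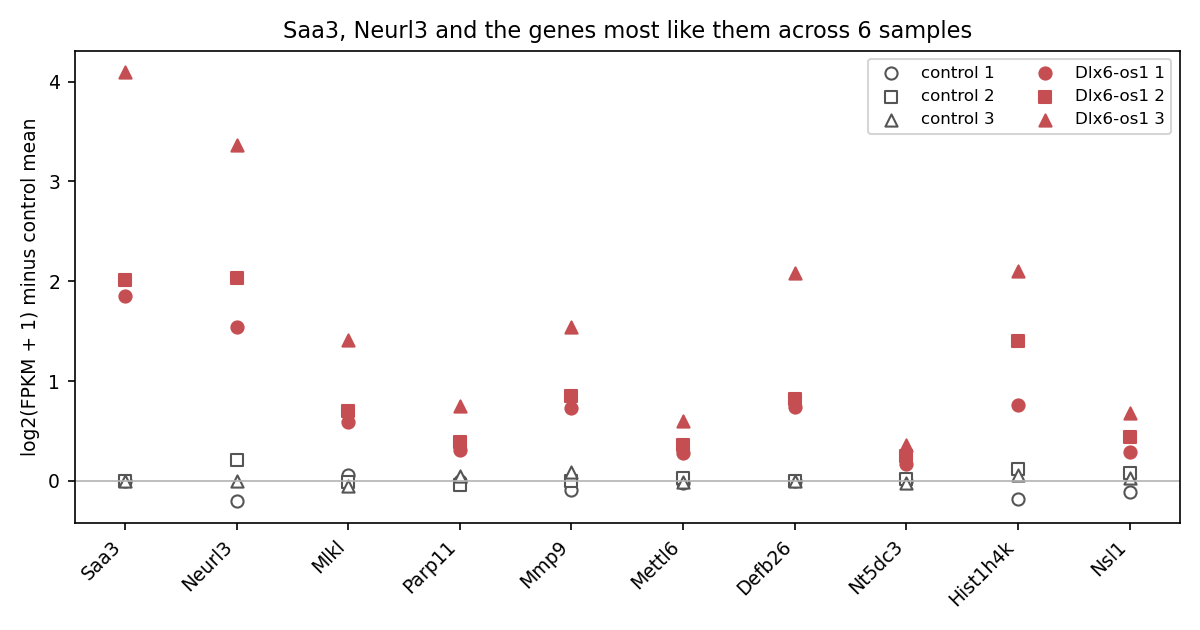
Difference of log2(FPKM + 1) from the control mean (y axis) in each sample for Saa3, Neurl3 and the 8 genes most like them (x axis), with open grey symbols for controls and filled red symbols for Dlx6-os1 overexpression. In each gene the red triangle, overexpression replicate 3, is the highest point, and no red symbol reaches down to a control.

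No other measured gene of either family was called. Over all genes 2.49% were called higher and 2.23% lower, so with 3 measured relatives the absence of a call is near these shares. Saa1, Saa2 and Saa4, the other serum amyloid A genes of the same cluster, had no listed transcript, and in RefSeq the 250 bases before their starts held 2, 1 and 2 matches to the C/EBP motif, with an NF-κB match in Saa1 at -91. Of the Neuralized relatives, 3 of 4 were measured and 0 were called. Neurl1b, a ligase of Notch ligands, was at 1.78, 2.23 and 0.433 FPKM in the controls and 2.20, 2.19 and 2.67 FPKM with Dlx6-os1, a log2 difference of 0.51 ± 0.30 (SE, adjusted p = 0.639). Neurl2 was at 2.03, 2.26 and 3.97 FPKM and at 2.98, 3.91 and 2.58 FPKM, and Neurl4, a centriolar protein gene, at 7.25, 10.2 and 9.29 FPKM and at 9.32, 11.3 and 9.77 FPKM. The log2 difference was 0.17 for each of these genes (adjusted p = 0.877 and 0.814), and their groups overlapped. Neurl1a had no listed transcript.

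The process that Neuralized is known for in the fly was followed through 22 Notch ligands, receptors, target genes and ligases, of which 13 were measured. No gene of the list was called higher, 2 were called lower, and the median log2 difference was -0.002. The shares over all genes were 2.49% higher and 2.23% lower. Jag1, a Notch ligand gene, was at 21.6, 15.5 and 18.5 FPKM in the controls and 13.7, 13.7 and 5.26 FPKM with Dlx6-os1 (-0.81, adjusted p = 0.519). Hes1, a transcriptional target of Notch, was at 40.2, 38.3 and 41.6 FPKM and at 26.4, 31.0 and 16.4 FPKM (-0.73, adjusted p = 0.471). The groups did not overlap for either gene, and replicate 3 was lowest. Without overexpression replicate 3 neither was called, at -0.40 for Jag1 and -0.47 for Hes1, and Jag1 was not called without control replicate 1 or 3 either. The receptor gene Notch1 differed by 0.20 and the ligand gene Dll1 by -0.30, and neither was called.

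The genes upstream of serum amyloid A, cytokines with their receptors and the transcription factors that drive it, numbered 31, with 27 measured. Only Tnfrsf1b, the gene of TNF receptor 2, was called higher, at 7.80, 12.2 and 9.77 FPKM in the controls and 13.0, 17.0 and 24.1 FPKM with Dlx6-os1 (0.78, adjusted p = 0.471). It was not called without overexpression replicate 3 (0.56). None was called lower, while over all genes 2.49% were called higher and 2.23% lower. Of the 27 genes, 20 had a difference above 0 (74.1%, against 54.2% of all genes), with a median of 0.16 against 0.03 over all genes. The NF-κB subunit genes Nfkb2 and Relb differed by 0.54 and 0.43, their cofactor gene Bcl3 by 0.56 and the cytokine gene Lif by 0.46, without being called. The C/EBP genes went both ways, with Cebpd at 0.47, Cebpb at 0.30, Cebpg at 0.22 and Cebpa at -0.45, and none was called. Lifr (-0.46), Il1r1 (-0.39), Osmr (-0.34) and Stat3 (-0.25) were also among those below 0 and were not called. Il1a, Il1b, Tnf and Osm, the cytokine genes themselves, had no listed transcript. The count of 1 became 0 without overexpression replicate 3, 4 without replicate 1, 2 without replicate 2, and 3 and 5 without control replicates 2 and 3.

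Downstream of serum amyloid A, its receptors, binding partners and proteases numbered 33, with 23 measured. Of these, 1 was called higher and 3 were called lower, against 2.49% and 2.23% of all genes. Their median log2 difference was -0.02. P2rx7, the gene of an ATP-gated channel, was higher, at 0.942, 1.17 and 2.76 FPKM in the controls and 3.15, 4.22 and 15.0 FPKM with Dlx6-os1 (1.48, adjusted p = 0.481). Tlr4, the gene of the lipopolysaccharide receptor, was called lower, at 10.3, 4.96 and 5.0 FPKM and at 1.91, 1.10 and 5.72 FPKM (-1.10, adjusted p = 0.516), although replicate 3 lay within the control range. Its co-receptor gene Cd14 was lower at 14.6, 22.3 and 14.7 FPKM against 9.26, 10.7 and 9.21 FPKM (-0.74, adjusted p = 0.425). Mmp2, a matrix protease gene, fell to 32.9, 28.7 and 19.6 FPKM from 40.1, 46.3 and 55.8 FPKM (-0.80, adjusted p = 0.425). The adaptor gene Myd88 (0.47), the lipoprotein receptor gene Lrp1 (-0.33), the perlecan gene Hspg2 (-0.38) and Selenos, listed under its older name Vimp (0.55), were not called. The formyl peptide receptor genes Fpr1 and Fpr2 and the scavenger receptor gene Cd36 had no listed transcript. Tlr4 was not called without control replicate 1 or overexpression replicate 1 or 2, nor P2rx7 without control replicate 1, nor Cd14 without control replicate 2.

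Among the other acute phase genes, C3 and Lcn2 passed the adjusted threshold, which 0 of all genes passed when control replicate 1, 2 or 3 was left out. Of 38 listed, 13 were measured, 4 were called higher and 1, Cd14, lower, with a median log2 difference of 0.25. The shares over all genes were 2.49% called higher and 2.23% called lower. C3, the central complement component gene, was at 0.952, 1.01 and 1.07 FPKM in the controls and 13.9, 14.5 and 27.0 FPKM with Dlx6-os1, 3.21 ± 0.26 higher (SE, adjusted p = 0.0111). Lcn2, which encodes the iron-siderophore binding lipocalin NGAL, was at 0.317, 0.0700 and 0 FPKM in the controls and 13.1, 14.3 and 46.0 FPKM with Dlx6-os1, 4.27 ± 0.43 higher (SE, adjusted p = 0.0222). In both genes, as in Saa3, replicates 1 and 2 lay close together and replicate 3 was highest. Lbp, the lipopolysaccharide binding protein gene, was at 1.26, 2.15 and 2.50 FPKM and at 3.69, 4.02 and 4.18 FPKM (0.76, adjusted p = 0.425). Steap4, a metalloreductase gene, was at 0.483, 0.449 and 0.153 FPKM and at 1.13, 1.36 and 0.965 FPKM (0.66, adjusted p = 0.437). Lbp was not called without control replicate 1 (0.58), nor Steap4 without control replicate 3 (0.55). Timp1 (-0.58), Cfb (0.52), Hpx (0.43) and C4b (-0.29) were not called. A gene that was low in the controls is in the table only where it was higher with Dlx6-os1. Among the 9 genes with a control mean of at least 0.5 FPKM, 2 were called higher and 1 lower, with a median of -0.11.

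**Figure D4:**
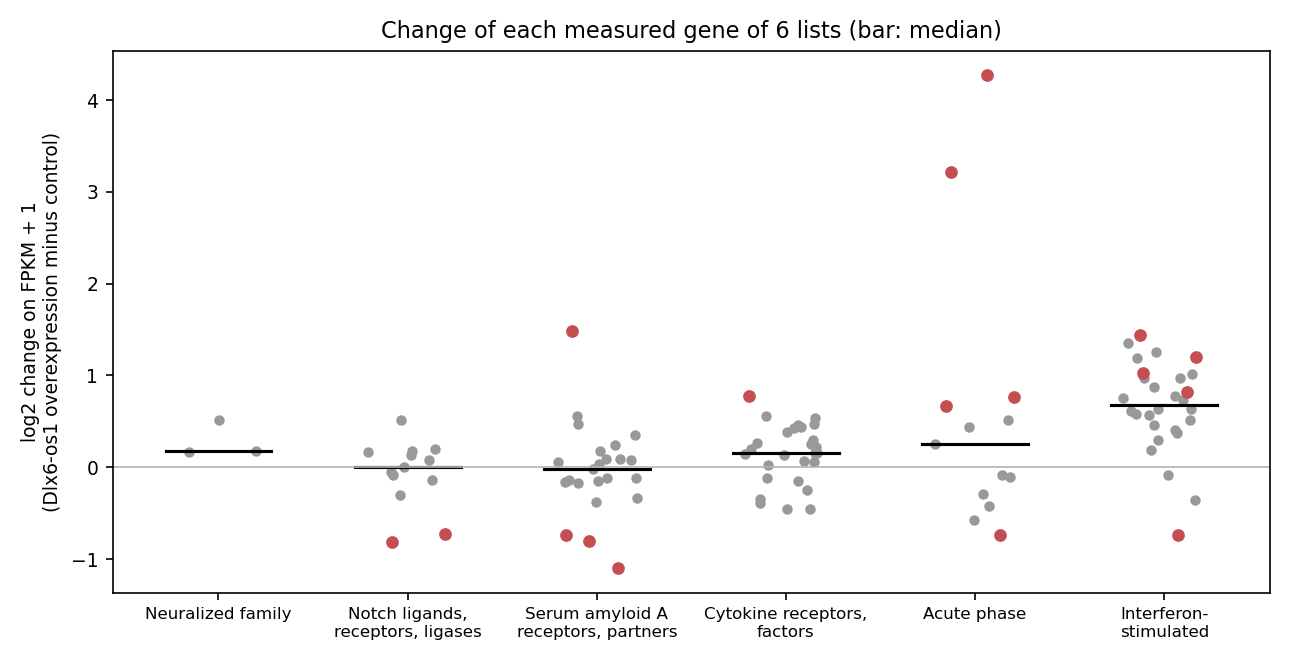
Log2 difference on FPKM + 1, Dlx6-os1 minus control (y axis), of each measured gene of 6 lists (points, red where called, grey where not), with the list median as a bar and Saa3 and Neurl3 left out. C3 and Lcn2 stand apart at 3.21 and 4.27 among the acute phase genes, and the median of the interferon-stimulated genes is 0.68.

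None of the measured genes beside Saa3 and Neurl3 on their chromosomes was called. Over all 11308 genes, 2.49% were called higher and 2.23% lower. With so few neighbours, the absence of a call is near these shares. Within 500 kb of the Saa3 start, 9 genes were measured and 0 were called, with log2 differences from -0.33 to 0.33 and a median of 0.20. The nearest was Saal1, whose start is 5.02 kb away, at 6.41 to 8.61 FPKM in the controls and 4.84 to 7.52 FPKM with Dlx6-os1 (-0.22, adjusted p = 0.793). On the other side the nearest was Hps5, 80.0 kb away, at 4.68 to 6.19 FPKM and 6.01 to 7.33 FPKM (0.20, adjusted p = 0.767). Within 500 kb of the Neurl3 start, 12 genes were measured and 0 were called, with differences from -0.37 to 0.23 and a median of -0.05. Uggt1, a glycoprotein folding sensor gene 29.1 kb away, was at 7.02 to 13.2 FPKM and 7.33 to 10.3 FPKM (-0.25, adjusted p = 0.806). Arid5a, which encodes an RNA-binding protein that stabilizes inflammatory mRNAs and lies 34.3 kb away on the other side, was at 1.61 to 2.53 FPKM and 1.69 to 4.29 FPKM (0.18, adjusted p = 0.887). The groups overlapped for each of these 4 genes.

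**Figure D5:**
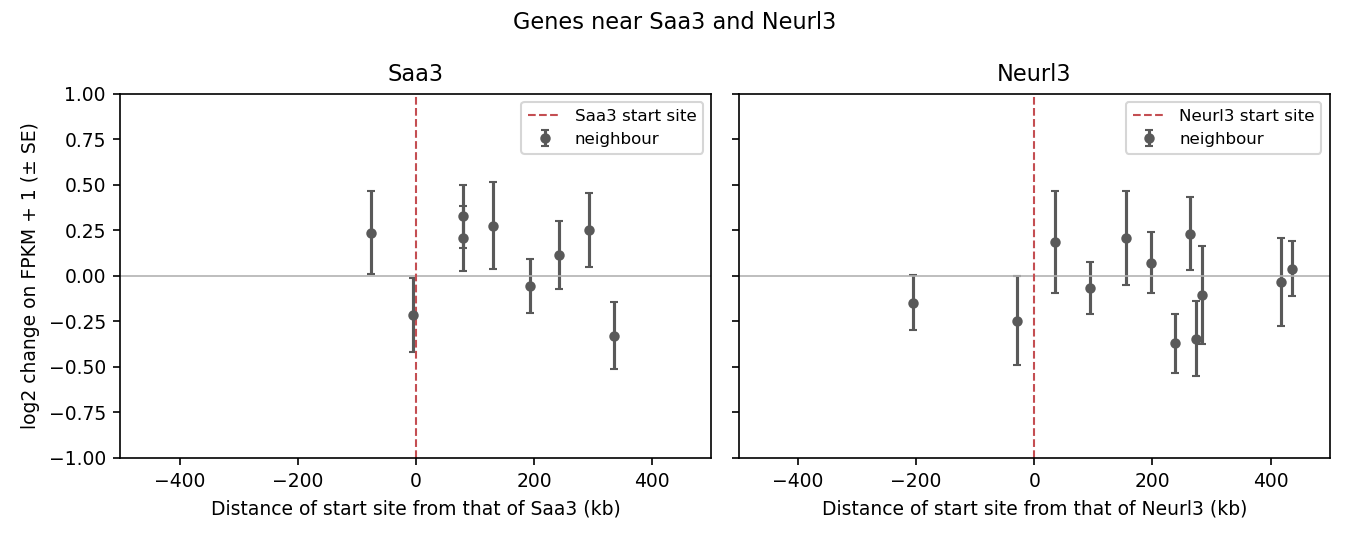
Log2 difference on FPKM + 1 (y axis, points with SE) of each measured gene within 500 kb of Saa3 (9 genes) and Neurl3 (12 genes), against the distance between start sites in kb (x axis, along the chromosome, with the dashed line at the start of Saa3 or Neurl3). The points lie between -0.37 and 0.33.

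Cell types known to make Saa3 or Neurl3 were looked for through their markers. Of 12 macrophage and leukocyte markers only Csf1r and Cd68 were listed, with a summed level of 10.6 to 13.5 FPKM in the controls and 10.2 to 12.5 FPKM with Dlx6-os1. Ptprc, Adgre1 and Lyz2 had no listed transcript. None of 10 neutrophil, 7 T and B cell, 6 alveolar type II cell, 6 endothelial or 5 adipocyte markers was listed, and of 7 hepatocyte markers only Alb, at 0.300 to 0.658 FPKM in the controls and 0.495 to 0.668 FPKM in the overexpressing cells. Of the 8 measured podocyte markers 2 were called, both lower: Kirrel, a slit diaphragm gene, (-1.63, adjusted p = 0.307) and Plce1 (-0.62, adjusted p = 0.516). Among all genes, 2.23% were called lower and 2.49% higher. Of 9 proximal tubule markers 2 were measured, and both were called lower, Aqp1 (-1.41, adjusted p = 0.494) and Lrp2 (-0.74, adjusted p = 0.496). Without overexpression replicate 3 the differences were -0.37 for Plce1 and -0.42 for Lrp2, which were then not called, and -0.75 for Aqp1. Plce1 and Aqp1 were also not called without control replicate 1 or 2, nor Lrp2 without control replicate 1.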

How the data were processed

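The values deposited are FPKM per protein-coding transcript, in 1 table, from polyA RNA libraries sequenced on an Illumina instrument. The tools in the submitters' processing notes are FastQC, HISAT2 and StringTie with mm10. No versions are named, and neither the release of the annotation nor the use of strand is given in the sources used here. Columns were matched to samples by the sample descriptions, and groups came from the titles. Low values did not line up with steps worth 1 read, so the depth is unknown and precision rests on 3 samples per group.

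FPKM were summed over each gene symbol and compared with limma 3.58.1 in R 4.3.3 (lmFit, eBayes with a mean-variance trend) on log2(FPKM + 1), two-sided, with Benjamini-Hochberg adjustment over 11308 genes. The model was tested on simulated data. Exact permutation of 3 against 3 samples cannot go below p = 0.1. Exons and lengths came from GENCODE M21 and promoters from RefSeq, by gene symbol, with Python 3.11.15. Genes named are Saa3 and Neurl3, their families, and called genes of each list with up to 4 more of the smallest p. The nearest neighbours, the 5 genes most correlated with each of Saa3 and Neurl3, and the 7 genes listed at 0 in the controls are also named. Among the upstream genes of serum amyloid A, the C/EBP genes and some with a difference below 0 were added to these. Predicted genes were neither ranked by correlation nor named. Saa3, Neurl3, the lists and the rules were chosen with earlier results of these data known. The alternatives were pseudocounts of 0.1 and 0.5, a filter at 1 FPKM, TPM, quantile normalization, median-centring, a replicate block, no trend, single transcripts and leaving out each sample.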

Additional observations from a re-analysis of the deposited data

How the results depend on the processing

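The mean Saa3 level in the overexpressing cells was 7.25 FPKM. It was 2.83 to 9.57 FPKM when an overexpressing sample was left out, the lowest without overexpression replicate 3. Rescaled to TPM the mean was 19.9, which is another unit and not to be compared with the FPKM value. The Neurl3 log2 difference of 2.31 became 3.03 with a pseudocount of 0.1 and ranged from 1.79 to 2.70 when a sample was left out. For Neurl3-001 alone, added after the data had been seen, it was 2.26. The main fit did not pair samples of the same number. Their deviations from the group means correlated at 0.287, 0.0238 and 0.295 for numbers 1, 2 and 3. Those of different numbers correlated at -0.311 to 0.106, so for numbers 1 and 3 the same-number value was the highest. Whether samples of the same number were handled together is not known. With a replicate block the Neurl3 difference stayed at 2.31, the genes at an adjusted p under 0.05 rose from 4 to 10, and the interferon-stimulated genes called higher rose from 4 to 15. Their number was 7 in TPM, 1 after quantile normalization and 2 after median-centring, and 1 to 16 when a sample was left out. The upstream genes of serum amyloid A called rose from 1 to 2 with pseudocounts of 0.1 and 0.5 and in TPM, and ranged from 0 to 5 when a sample was left out. Acute phase genes called higher stayed between 3 and 5 under the alternatives run for genes. As single transcripts, 670 were called higher and 548 lower. Leaving out a sample gave 203 to 407 genes higher, 181 to 382 lower and 0 to 8 at the adjusted p, with 0 without control replicate 1, 2 or 3, 1 without overexpression replicate 2 and 8 without overexpression replicate 3. Of 20 called list and marker genes, 5 (C3, Lcn2, Mmp2, Oasl2 and Kirrel) kept their unadjusted call under each alternative run for genes. This leaves out single transcripts, and 0 of the 20 reversed. Mlkl, Mmp9, Defb26 and Hist1h4k, called genes named for their correlation with Saa3 or Neurl3, were not followed through the alternatives.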
